A study of Mus musculus with 9 samples.

Results

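A set of 10 developmental and signalling regulators, of 15122 gene symbols in the data, had mean expression on opposite sides of control with Nrf1 and with Nrf2. They were selected on these group means of LacZ, Nrf1 and Nrf2 samples, so the direction of each is a description and was not tested. Of the 10 genes, 2 (*Hhip* and *Sp5*) were higher with Nrf1 and lower with Nrf2. The other 8 (*Nr2f1*, *Runx2*, *Prdm1*, *Irf4*, *Sema3a*, *Ednrb*, *Ndrg1* and *Pde5a*) were lower with Nrf1 and higher with Nrf2.

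RNA was sequenced from neonatal rat ventricular cardiomyocytes (NRVMs), primary heart muscle cells of 1- or 2-day-old Sprague Dawley pups. All 3 groups were infected with adenovirus at a multiplicity of infection of 50, from a vector that drives its insert with the CMV promoter and also carries a red fluorescent protein. The insert was LacZ, which encodes β-galactosidase and was the control, mouse Nrf1 or mouse Nrf2. Cells were cultured for 48 h before infection and collected 48 h after it, in 3 libraries per group. The labels do not say whether the libraries of a group came from separate cell isolations, and NRVM cultures hold some non-muscle cells, so fewer cells of a type and less RNA per cell cannot be told apart in these bulk samples.

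Nrf1 (gene *Nfe2l1*) and Nrf2 (gene *Nfe2l2*) are related CNC-bZIP transcription factors that pair with small Maf proteins at antioxidant response elements. Nrf1 is anchored in the endoplasmic reticulum and is known for driving proteasome genes when proteasomes fail, while Nrf2 is held by Keap1 and is known for the response to oxidants. The genes described here belong to neither classical program. They encode 5 transcription factors that pattern embryonic tissue or set blood cell fates, 3 proteins of the cell surface and the space between cells, and 2 intracellular proteins.

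Values are normalized counts, that is, reads per gene divided by a size factor for the library, and they are comparable within 1 table of 2 groups. Each group appears in 2 tables with a slightly different scale, so LacZ levels differ a little between the comparison with Nrf1 and that with Nrf2. The reads of single libraries were recovered from the group means of both tables, giving 7759856 to 9205817 reads in LacZ, 8598296 to 10356088 in Nrf1 and 10160734 to 11917644 in Nrf2 libraries. Libraries are named by depth within a group. *Nfe2l2* averaged 75066 in Nrf2 and 3475 in LacZ samples, and *Nfe2l1* was not analysed here, so the overexpression of Nrf1 was not checked. The cells expressed 11 of 12 cardiomyocyte markers, such as *Tnnt2* (mean 32049 in LacZ samples), and *Ttn* was not in the tables.

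Among the transcription factors, *Sp5*, a zinc finger protein that is a direct target of Wnt and β-catenin signalling in embryos, was the only 1 higher with Nrf1. Its normalized counts were 17.9, 18 and 18 in LacZ and 47.2, 50.8 and 54.1 in Nrf1 samples. The group means of 17.9 and 50.7 differed by 2.83-fold (1.5 on the log2 scale), with no overlap. In the table with Nrf2, LacZ libraries read 19.1, 19.2 and 19.2 and Nrf2 libraries 4.40, 10.8 and 10.8. The Nrf2 mean was 2.21-fold lower (-1.14), and the lowest library, the middle one by depth, held 5 *Sp5* reads against 13 and 11 in the others. LacZ libraries held 16 to 19 reads each, and the highest was 1.01 times the lowest, against 1.58 times at the median of 526 genes of like level.

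*Nr2f1*, which encodes the nuclear receptor COUP-TFI of neural, neural crest and atrial development, showed the opposite order. LacZ samples had 42.6, 62.6 and 66.6 and Nrf1 samples 18.7, 20.4 and 23.9 normalized counts, a 2.73-fold lower mean with Nrf1 (-1.45). Beside Nrf2, LacZ samples had 45.4, 66.8 and 71.3, and the Nrf2 libraries were almost level at 129.5, 130.0 and 130.3. The mean was 2.13-fold higher with Nrf2 (1.09), and neither comparison overlapped.

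*Runx2*, the master regulator of osteoblast differentiation, was at 117, 118 and 126 in LacZ and at 46.8, 52.6 and 58.0 in Nrf1 samples, 2.30-fold lower at the mean (-1.20). Against LacZ values of 125, 127 and 135, Nrf2 samples reached 184, 207 and 247, 1.65-fold higher (0.72). The Nrf2 libraries were uneven: the highest was 1.34 times the lowest, a wider spread than in 97.9% of genes of like level, and all 3 still lay above LacZ.

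*Prdm1* encodes Blimp-1, a repressor that drives plasma cell maturation and marks several embryonic progenitors. It was scarce, at 12.3, 15.1 and 22.2 in LacZ and 4.29, 6.24 and 6.42 in Nrf1 samples, where only 4 to 7 reads per library were counted. The mean was 2.93-fold lower (-1.55). With Nrf2 it was 38.3, 39.2 and 40.5 against 13.1, 16.1 and 23.8 in LacZ samples, 2.22-fold higher (1.15), and the groups were apart in both tables.

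*Irf4*, an interferon regulatory factor of lymphocytes, macrophages and fat cells, was the least even of the 10 genes in control samples. LacZ samples had 13.2, 21.2 and 30.6 and Nrf1 samples 7.34, 8.02 and 12.9. The mean was 2.31-fold lower with Nrf1 (-1.21), but the nearest libraries of both groups differed by only 1.03-fold, and without the highest LacZ library the log2 ratio was -0.87. The difference with Nrf2 was wider than the spread, with 63.4, 66.7 and 68.7 against 14.1, 22.6 and 32.8 in LacZ samples, 2.86-fold higher (1.51).

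Of the secreted and cell surface proteins, Hhip, a membrane protein that binds Hedgehog ligands and dampens their signal, had the largest ratio of any of the 10 genes to LacZ with Nrf1. *Hhip* counts were 104, 107 and 136 in LacZ and 359, 369 and 375 in Nrf1 samples, 3.18-fold higher at the mean (1.67). With Nrf2 they were 49.1, 60.7 and 60.8 against 111, 114 and 145 in LacZ samples, 2.17-fold lower (-1.12). The nearest libraries were 2.63-fold apart with Nrf1 and 1.82-fold with Nrf2.

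*Sema3a* encodes a secreted semaphorin that repels growing axons and, in the heart, shapes sympathetic innervation. It read 139, 147 and 150.5 in LacZ and 59.7, 70.9 and 71.6 in Nrf1 samples, 2.16-fold lower (-1.11). In Nrf2 samples it was nearly constant, at 242, 248 and 248, against 148, 157 and 160.5 in LacZ samples. That is 1.59-fold higher (0.67), the smallest ratio with Nrf2 among the 10 genes.

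*Ednrb* encodes the endothelin B receptor, which neural crest cells need to colonize gut and skin and which endothelial cells use to clear endothelin. LacZ samples had 43.5, 52.5 and 64.5 and Nrf1 samples 15, 17.8 and 22.0, 2.92-fold lower (-1.55). Nrf2 samples had 126, 129.5 and 154 against 46.4, 56.0 and 69.0 in LacZ samples, 2.39-fold higher (1.26). The nearest libraries were 1.98-fold apart with Nrf1 and 1.82-fold with Nrf2.

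The 2 intracellular proteins differed in how far they lay below LacZ. *Ndrg1* is a gene of the hypoxia and stress response that is also needed in Schwann cells. It had the most reads of the 10 in LacZ and Nrf2 samples, with no correction for gene length. In Nrf1 samples *Hhip* had more. *Ndrg1* read 326, 335 and 372 in LacZ and 216, 232 and 237 in Nrf1 samples. This 1.51-fold lower mean (-0.59) was just inside the 1.5-fold limit used for calls, and it fell outside, at -0.53, without the middle LacZ library and at -0.55 without the middle Nrf1 library. With Nrf2 the values were 654, 665 and 673 against 347, 358 and 398 in LacZ samples, 1.81-fold higher (0.85).

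*Pde5a*, the cGMP-degrading phosphodiesterase that sildenafil inhibits, was at 82.7, 107 and 109 in LacZ and 40.1, 44.0 and 47.2 in Nrf1 samples, 2.27-fold lower (-1.18). Nrf2 samples had 184, 206 and 208 against 88.2, 114 and 116 in LacZ samples, 1.87-fold higher (0.91). No library of 1 group reached those of the other.

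**Figure D1:**
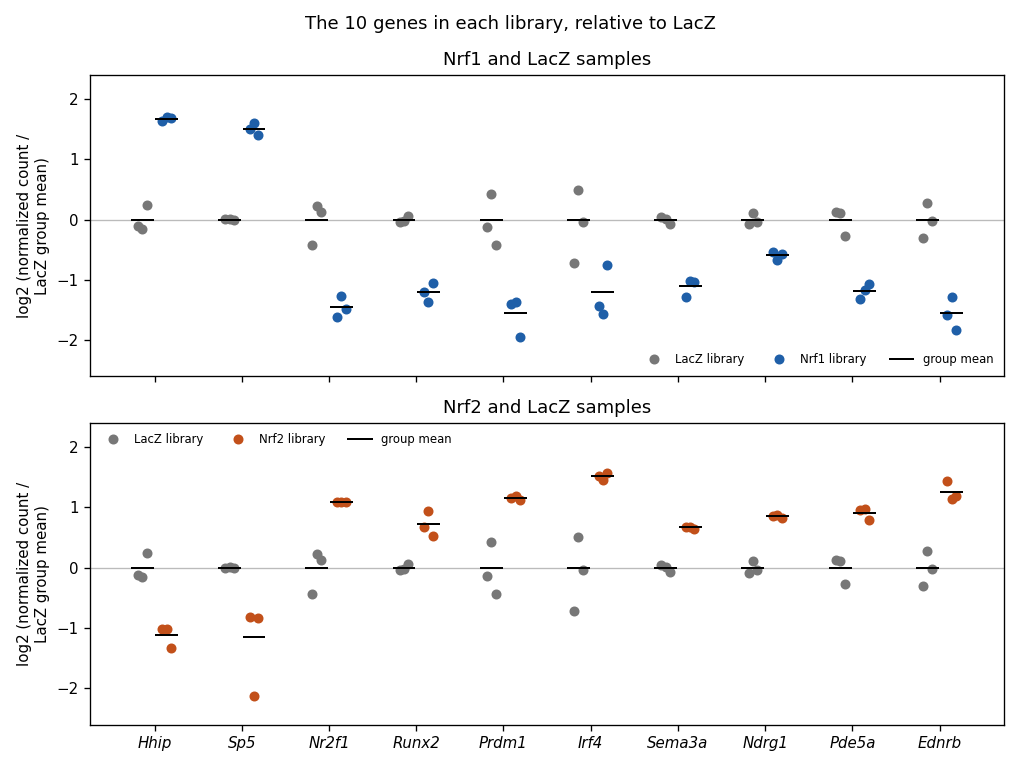
Normalized counts of the 10 genes in single recovered libraries, as log2 ratios to the LacZ group mean of the same table, with Nrf1 above and Nrf2 below. Points are libraries and black bars are group means; *Hhip* and *Sp5* lie above LacZ with Nrf1 and below it with Nrf2, the other 8 the reverse, and *Irf4* in the upper panel comes nearest to overlap, with 1.03-fold between groups.

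All 10 genes were past 1.5-fold in both comparisons with LacZ. The rule chose them on this measure, so the shares of all genes stand here for scale only. Among genes whose higher group mean reached 10, with Nrf1 11.9% were past 1.5-fold higher and 18.1% past it lower; with Nrf2 the shares were 9.78% and 10.9%. In all 10 genes the 3 libraries of each group were also wholly apart. That holds for many genes here: 36.2% had all Nrf1 libraries above and 34.4% all below LacZ, and for Nrf2 31.7% and 30.0%.

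Set directly beside each other, Nrf1 and Nrf2 samples were wholly apart for all 10 genes. As both groups lay wholly apart from LacZ on opposite sides, this was given by the choice of genes and the values above. It is a description and adds no support. Over all genes, 12.3% were past 1.5-fold higher and 5.16% past it lower in Nrf2 than in Nrf1 samples, and 31.4% and 32.4% had libraries wholly apart in those directions. *Ednrb* differed most, with 16.8, 19.9 and 24.5 in Nrf1 and 131, 135 and 160.2 in Nrf2 samples (6.95-fold). *Hhip* differed as much in the other direction, at 401, 412 and 418 with Nrf1 and 51.0, 63.1 and 63.2 with Nrf2 (6.94-fold). *Irf4* (6.55-fold), *Prdm1* (6.48-fold), *Sp5* (6.27-fold) and *Nr2f1* (5.77-fold) followed. *Pde5a* was at 44.7, 49.1 and 52.8 with Nrf1 and 191, 214 and 216 with Nrf2 (4.23-fold), and *Runx2* (3.78-fold) and *Sema3a* (3.41-fold) came next. *Ndrg1* differed least (2.71-fold), from 240.3, 259 and 265 with Nrf1 to 680, 691 and 698 with Nrf2.

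**Figure D2:**
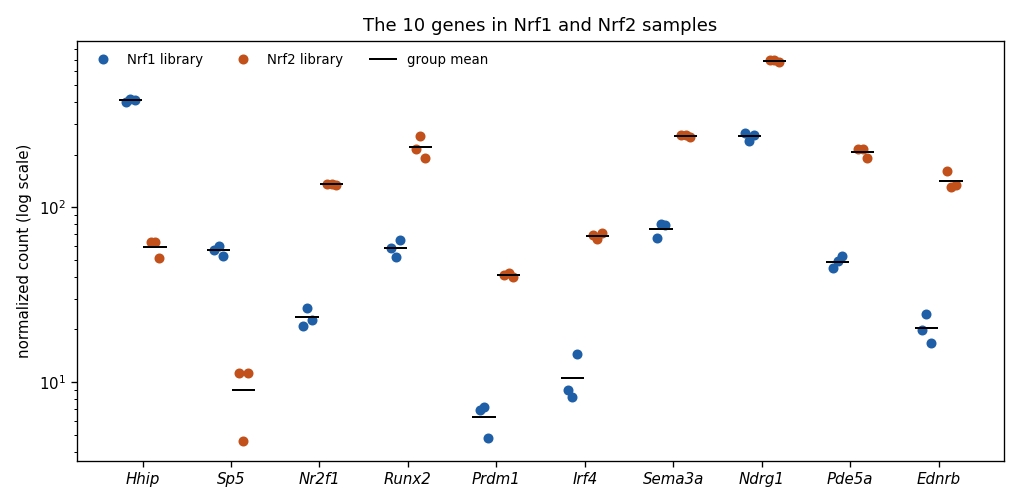
Normalized counts (log axis) of the 10 genes in the Nrf1 and Nrf2 libraries of the table that holds both groups. Points are recovered libraries and bars group means. No gene overlaps, from *Ndrg1* (means 255 and 690) to *Ednrb* (20.4 and 142), as both groups lay apart from LacZ on opposite sides.

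Few genes were past 1.5-fold on opposite sides of LacZ with Nrf1 and with Nrf2. Of 11379 genes that reached a mean of 10 in both tables, 4 (0.0352%) were past 1.5-fold higher with Nrf1 and lower with Nrf2, and 63 (0.554%) were past it in the reverse directions. Both comparisons use the same LacZ libraries. Counting the 10 genes, 3 of the 4 and 50 of the 63 had libraries wholly apart from LacZ in both comparisons. *Sp5* and *Hhip* stood first and second of the 4 by the smaller of their log2 ratios. The other two were *Gfap*, an intermediate filament gene of glia (0.77 with Nrf1 and -0.60 with Nrf2), and *Slc22a18*, an imprinted transporter gene (0.59 and -1.0). *Gfap* overlapped between groups in at least 1 table.

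The other 8 ranked between 12 (*Ednrb*) and 62 (*Ndrg1*) of the 63. Ahead of them stood 2 stromelysin genes, matrix-degrading proteases. *Mmp3* averaged 50.1 in LacZ and 13.3 in Nrf1 samples, and 53.6 in LacZ and 1018 in Nrf2 samples (-1.92 and 4.25). *Mmp10* had log2 ratios of -1.61 and 2.97. *Slpi*, a secreted inhibitor of leukocyte proteases, led the list at -2.47 and 2.38. The 2 LOC symbols *LOC24906* (-1.62 and 1.98) and *LOC691215* (-1.73 and 1.57) completed the first 5. *Ednrb* (rank 12) and *Irf4* (rank 13) were the first of the 10 genes in this direction.

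Such opposite ratios past 1.5-fold were more frequent among genes of low level. They made up 1.41% of genes whose highest mean was 10 to 50, 0.963% from 50 to 200, 0.302% from 200 to 1000 and 0.261% above. Of the 10 genes, 1 fell in the lowest of these ranges, 5 in the next, 4 in the third and 0 in the highest.

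**Figure D3:**
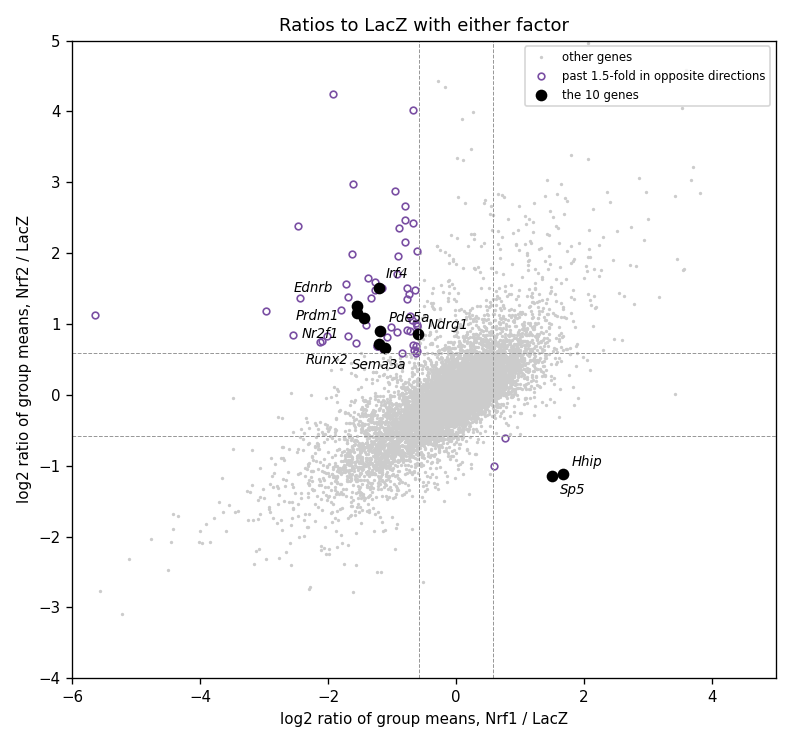
Log2 ratio of group means to LacZ with Nrf1 (x axis) and with Nrf2 (y axis), 1 point per gene that reached a mean of 10 in both tables; dashed lines mark 1.5-fold. The 10 genes (black) and the other genes past 1.5-fold in opposite directions (open circles) lie in the upper left, 63 genes, and lower right, 4 genes. Genes with a ratio beyond the axes are not drawn.

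The pathways of the 10 genes were read next, with 9 gene lists and limma on the recovered libraries; "rose" and "fell" mean past 1.5-fold with a Benjamini-Hochberg adjusted p under 0.05 over all genes. By this rule 11.4% of genes rose and 17.1% fell with Nrf1, and 9.19% rose and 9.69% fell with Nrf2. The median log2 ratio over all genes was 0.00 in both comparisons. The lists were read without the 10 genes themselves.

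In the Hedgehog pathway none of 10 other genes rose with either factor, and 3 fell with each, with medians of -0.07 (Nrf1) and -0.44 (Nrf2). The transcription factors *Gli2* (limma log2 fold change -1.16 ± 0.21 (SE), adjusted p = 0.000134, with Nrf1; -0.58 ± 0.19, 0.0161, with Nrf2) and *Gli3* (-1.10 ± 0.10, 9.49e-08; -0.59 ± 0.09, 6.28e-05) fell with both. *Scube3*, which helps release Hedgehog ligand, fell with Nrf1 (-1.71 ± 0.12, 2.83e-09), and *Cdon*, a co-receptor, fell with Nrf2 (-0.61 ± 0.09, 4.35e-05). *Ptch1*, the receptor and classical target, averaged 136 in LacZ and 142 in Nrf1 samples, and 145 in both groups of the other table; it was named after its values were seen. Among genes of this list with a mean of at least 10, *Hhip* was thus the only gene higher with Nrf1 past 1.5-fold. Without that limit, 1 other gene was past it.

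Of the other canonical Wnt targets and feedback genes, the context of *Sp5*, 0 of 10 rose and 5 fell with Nrf1 (median -0.58), and 0 of 11 rose and 2 fell with Nrf2 (median -0.30). *Dkk2*, a secreted Wnt modulator, fell with both, from 12.5 to 1.5 with Nrf1 (adjusted p = 0.00103) and from 13.4 to 4.90 with Nrf2 (0.0311). The feedback inhibitor *Nkd1* fell with Nrf1 (-1.53 ± 0.22, 1.57e-05), as did the transcription factor *Lef1* (-1.30 ± 0.27, 0.000521). *Nkd2* fell with Nrf2 (-1.13 ± 0.12, 1.59e-06).

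Beside *Nr2f1*, 0 of 16 genes of the COUP-TF family and retinoic acid signalling rose and 7 fell with Nrf1 (median -0.39), while 1 rose and 5 fell with Nrf2 (median -0.17). *Crabp1*, a retinoic acid binding protein, fell from 17.5 to 1.56 with Nrf1 (adjusted p = 2.74e-05). *Aldh1a2*, which makes retinoic acid, fell with Nrf1 (-0.92 ± 0.14, 3.92e-05) and Nrf2 (-1.38 ± 0.16, 5.49e-06), and so did *Cyp26b1*, which degrades it (-0.81 ± 0.11, 6.47e-06; -0.91 ± 0.11, 4.57e-06). *Nr2f2*, the closest relative of *Nr2f1*, was named after its values were seen. It fell with both, from 203 to 108 with Nrf1 (-0.90 ± 0.10, 1.59e-06) and from 216 to 138 with Nrf2 (-0.64 ± 0.10, 4.83e-05).

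Around *Runx2*, 3 of the 12 other Runx and osteoblast genes fitted fell and 0 rose with Nrf1 (median -0.56), and 3 of 13 rose and 1 fell with Nrf2. *Dlx5*, a homeobox gene of bone and limb, fell from 14.4 to 2.20 with Nrf1 (adjusted p = 0.000732). *Dmp1*, a bone matrix protein gene, rose from 2.58 to 16.6 with Nrf2 (0.00059). *Mepe*, a matrix gene of osteocytes, is listed at 0 in LacZ and at 103 in Nrf2 samples and could not be fitted. *Sost*, the osteocyte Wnt antagonist, fell with Nrf2, from 11.8 to 2.63 (0.00298). *Mmp13*, also of this list, was named after its values were seen. Its means lay on the same sides of LacZ as those of *Runx2*, with log2 ratios of -1.27 (16.5 to 6.82 with Nrf1) and 1.6 (17.6 to 53.4 with Nrf2). *Mmp13* overlapped between groups in at least 1 table.

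In the Blimp-1 and Irf4 network of blood cells, of 12 genes besides *Prdm1* and *Irf4*, 7 fell and 0 rose with Nrf1 (median -0.75), and 5 fell and 0 rose with Nrf2 (median -0.52). *Irf8*, a partner of *Irf4* in myeloid cells, fell with Nrf1 (-1.66 ± 0.29, 9.55e-05) and Nrf2 (-1.02 ± 0.27, 0.00502). *Cd38* fell with both (-1.45 ± 0.14, 2.66e-07; -1.38 ± 0.12, 1.80e-07), and so did the lymphoid factor *Ikzf3* (0.00862; 0.0348). *Ikzf1* fell with Nrf1 (-1.81 ± 0.32, 0.000135) and had an adjusted p of 0.086 with Nrf2.

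The list of *Sema3a* held class 3 semaphorins, neuropilins, plexin receptors and other proteins such as *L1cam* and *Fes*. Of its 17 other genes, 1 rose and 9 fell with Nrf1 (median -0.61), and 2 rose and 5 fell with Nrf2 (median -0.29). *Nrp2*, a semaphorin co-receptor, fell with Nrf1 (-1.35 ± 0.05, 5.77e-12), and *L1cam*, an adhesion molecule of the Sema3a receptor complex, also fell with Nrf1 (-1.83 ± 0.29, 4.56e-05). *Sema3g* fell with both (-1.69 ± 0.18, 6.07e-07; -1.05 ± 0.12, 3.87e-06), as did the kinase gene *Fes* (0.00113; 0.000461). Within the family, named after the values were seen, *Sema3e* rose with both factors (1.16 ± 0.12, 4.44e-07; 1.17 ± 0.12, 8.80e-07).

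The list of *Ndrg1*, the NDRG family and the hypoxia response, was mixed: 3 of 16 rose and 3 fell with Nrf1 (median -0.10), and 5 of 17 rose and 1 fell with Nrf2 (median 0.16). *Ndrg4* rose with both (1.81 ± 0.07, 4.21e-12; 1.16 ± 0.07, 9.87e-09), and so did *Adm*, which encodes the vasodilator adrenomedullin (0.85 ± 0.06, 5.52e-09; 1.42 ± 0.06, 8.58e-11). *Slc2a1*, the glucose transporter GLUT1, rose with Nrf2 (1.06 ± 0.05, 1.49e-10). *Car9*, a carbonic anhydrase induced by hypoxia, fell with both (-1.08 ± 0.20, 0.000164; -0.60 ± 0.16, 0.00479).

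Among other genes of cGMP synthesis, breakdown and effect, 3 of 15 fitted rose and 3 fell with Nrf1 (median -0.17 over 16), and 1 rose and 2 fell with Nrf2 (median -0.18). The natriuretic peptide receptor *Npr2*, which makes cGMP, fell with both (-1.02 ± 0.13, 4.55e-06; -0.96 ± 0.13, 2.20e-05). *Nppb*, the B-type natriuretic peptide, rose with Nrf1 (0.83 ± 0.06, 5.26e-09). The phosphodiesterase *Pde1c* rose with Nrf1 (0.99 ± 0.25, 0.00253), and *Pde1a* fell with it (-0.76 ± 0.21, 0.00412).

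In the endothelin system 2 of 13 others rose and 4 fell with Nrf1 (median -0.14), and 1 of 12 rose and 3 fell with Nrf2 (median -0.23). *Sox10*, a neural crest factor known to regulate *Ednrb*, was at the edge of detection and fell with both, from 10.1 to 2.04 (adjusted p = 0.00562) and from 10.8 to 4.51 (0.0411). *Mme*, a peptidase that degrades endothelin, fell with both (-1.36 ± 0.06, 1.43e-11; -0.59 ± 0.05, 4.59e-07). The converting enzyme gene *Ece2* (1.89 ± 0.25, 5.97e-06) and the converting enzyme-like gene *Ecel1* (1.05 ± 0.40, 0.0308) rose with Nrf1. Another pair was named after its values were seen: the ligand *Edn1* fell with both (-0.80 ± 0.08, 1.40e-07; -1.11 ± 0.08, 1.85e-08), and *Ednra*, the other endothelin receptor, averaged 554 in LacZ and 438 in Nrf1 samples, and 591 in LacZ and 679 in Nrf2 samples.

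**Figure D4:**
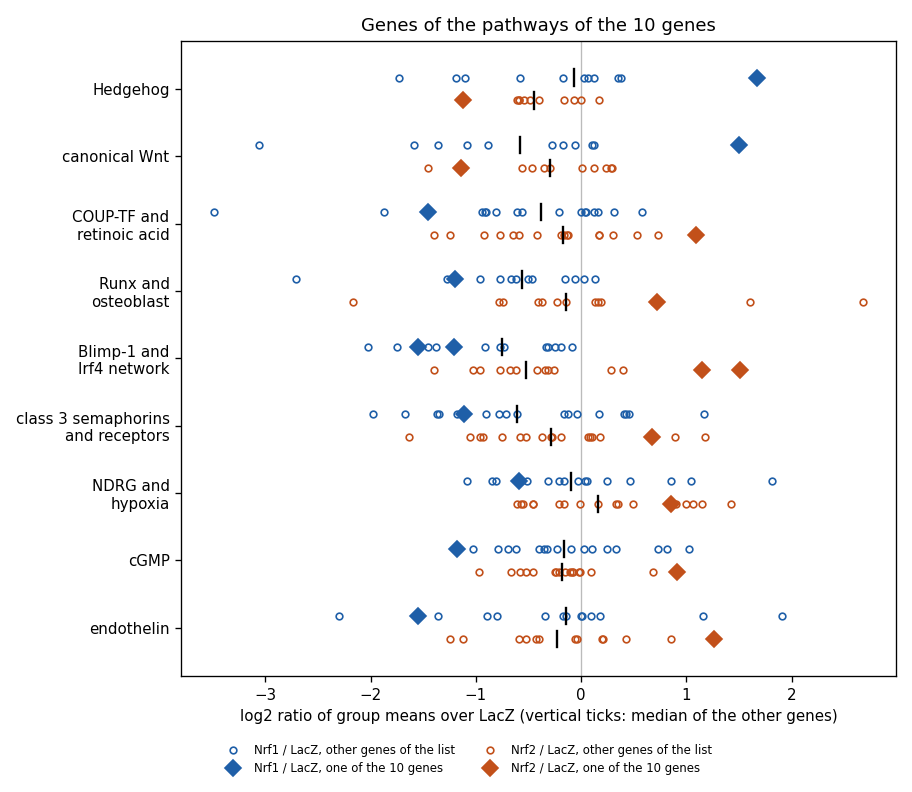
Log2 ratio of group means over LacZ for the genes of 9 pathway lists with a mean of at least 10, Nrf1 in blue and Nrf2 in orange. Diamonds are the 10 genes and open circles the other genes of each list, with vertical ticks at the median of those drawn, which runs from -0.75 to 0.16; *Mepe*, listed at 0 in LacZ samples, is not drawn.

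Markers of other cell types also differed between groups. Of 12 fibroblast markers, 11 fell with Nrf1, and their summed level went from 118458 to 119621 in LacZ to 39381 to 41950 in Nrf1 libraries. With Nrf2, 8 fell, and the sum went from 126302 to 128046 in LacZ to 72080 to 77335. *Col1a1* carries most of this sum. Of 9 leukocyte markers with a mean of at least 10, 8 fell with each factor, with sums of 1827 to 2671 in LacZ and 1039 to 1115 in Nrf1, and 1948 to 2860 in LacZ and 1103 to 1193 in Nrf2 libraries. The lymphocyte marker *Cd79b* is listed at 0 in LacZ samples. Its mean was under 1 in Nrf1 samples and at least 1 in Nrf2 samples.

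The sums of endothelial markers were also below LacZ with both factors. They were 1418 to 1470 in LacZ and 1015 to 1105 in Nrf1 libraries. Beside Nrf2 they were 1512 to 1573 in LacZ and 1056 to 1292 in Nrf2 libraries. Of 9 genes, 0 rose and 6 fell with Nrf1, and 1 rose and 5 fell with Nrf2. The sums of smooth muscle and pericyte genes were above LacZ with both factors. They were 44999 to 50412 in LacZ and 85831 to 86580 in Nrf1 libraries. Beside Nrf2 they were 48168 to 53750 in LacZ and 69989 to 72850 in Nrf2 libraries. *Acta2*, *Tagln* and *Des* make up most of that sum, and cardiomyocytes express them too. Of the 10 genes of this list, 3 rose and 4 fell with Nrf1 (median -0.69), and 2 rose and 1 fell with Nrf2 (median 0.04). The cardiomyocyte sum, over the 10 of 12 markers recovered in single libraries, was 128503 to 148948 in LacZ and 136635 to 137657 in Nrf1 libraries. Beside Nrf2 it was 137553 to 158811 in LacZ and 164947 to 168361 in Nrf2 libraries. Of these 10 markers, 2 rose and 3 fell with Nrf1 (median -0.21 over 11), and 0 rose and 0 fell with Nrf2 (median 0.21 over 11).

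The sums of Schwann and neural crest markers were 130 to 197 in LacZ and 104 to 121 in Nrf1, and 138 to 210 in LacZ and 244 to 315 in Nrf2 libraries. *S100b* rose with Nrf2 (22.5 to 130.0, adjusted p = 4.43e-07), and without it, a sum added after the data were seen, Nrf2 libraries (130 to 161) overlapped LacZ (118 to 181), while Nrf1 libraries (74 to 89) stayed below it (111 to 169). Of 5 of these markers with a mean of at least 10, 0 rose and 2 fell with Nrf1 (median -0.39), and 2 rose and 2 fell with Nrf2 (median -0.41). *S100b* was thus not the only marker of this list that rose with Nrf2, and the other riser stayed in the sum without *S100b*. *Sox10* and *Ngfr* fell with both factors. Epicardial sums were 611 to 642 in LacZ and 309 to 365 in Nrf1 libraries, and they overlapped with Nrf2 (654 to 685 and 630 to 683). Of 6 epicardial markers, 0 rose and 5 fell with Nrf1 (median -0.93), and 1 rose and 2 fell with Nrf2 (median -0.38). The part of these cell types in the levels of the 10 genes was not tested.

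**Figure D5:**
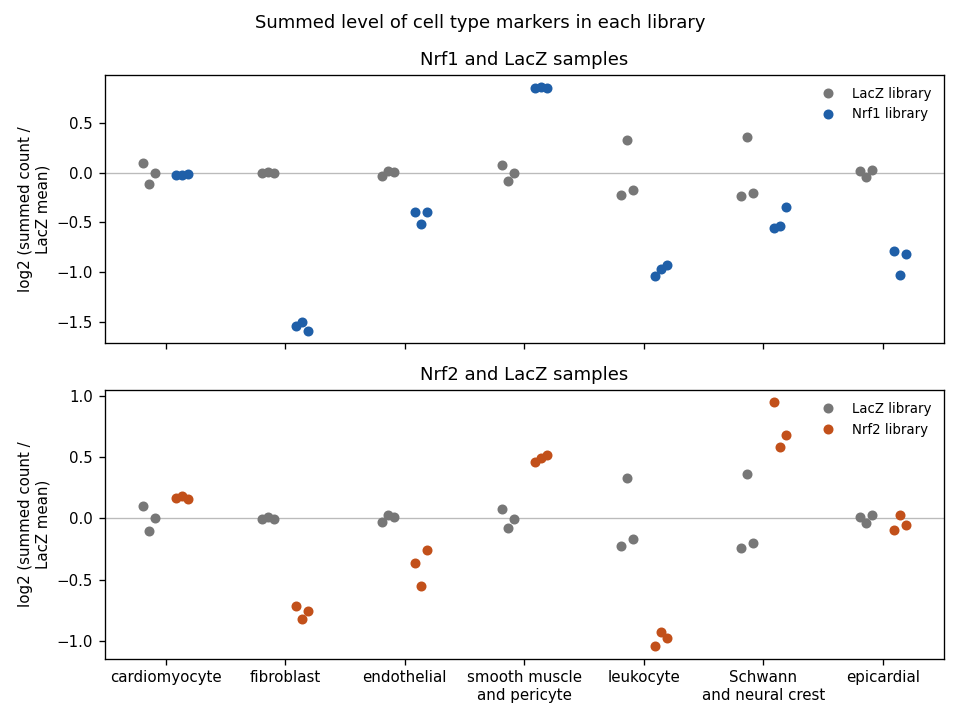
Summed normalized counts of cell type markers in each recovered library, as log2 ratios to the mean of the LacZ libraries in the same table. Fibroblast sums lie below LacZ with both factors, further with Nrf1 (39381 to 41950) than with Nrf2 (72080 to 77335), and the Schwann and neural crest sums above LacZ with Nrf2 (244 to 315) overlap it without *S100b* (130 to 161 against 118 to 181).

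The middle LacZ library stood apart in some of these markers. Its leukocyte sum was 2671 against 1827 and 1891, and its Schwann and neural crest sum 197 against 130 and 133. Its fibroblast and endothelial sums were only slightly the highest, and its cardiomyocyte, smooth muscle and epicardial sums were the lowest. This library was also the highest LacZ library for 5 of the 10 genes, *Nr2f1*, *Prdm1*, *Irf4*, *Ndrg1* and *Ednrb*. The deepest was highest for 3 and the shallowest for 2. The share over all genes was not computed, so the 5 cannot be read as a trait of these genes, and a link to the markers was not tested. Without the middle LacZ library all 10 genes were past 1.5-fold with Nrf2, and 9 were with Nrf1, where *Ndrg1* fell short.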

How the data were processed

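Per the paper's methods, stranded mRNA libraries were read as 75-bp single-end reads, checked with FastQC 0.11.4, aligned to rat Rnor 6.0 with HISAT2 2.0.4, freed of duplicates with samtools 0.1.18 and counted with featureCounts 1.6.0. The methods name edgeR 3.20.5 for the comparisons, while the column layout is that of DESeq. The organism field of the labels says mouse, although the cells and genome build are of rat. The mouse reference sequences at hand were therefore not used, so no promoter was searched and no sequence is shown.

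The authors deposited 3 tables of 2 groups each. The signal values the authors deposited are means, over a group's libraries, of read counts divided by size factors. The tables also hold the authors' fold changes and p-values, which were not used, and 0 columns of single samples. In each table with LacZ, 26 symbols were turned into dates and matched to nothing.

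The lowest means recur at 3 steps, each worth 1 read of 1 library. Since every group stands in 2 tables with different scaling, whole reads per library were solved from both means. Of 43982 gene and group pairs, 43973 had 1 whole-number solution, 9 had more and 0 had none. Recovered libraries could not be matched to sample numbers, so they are named by depth. Their p-values measure the spread between these libraries, which may be technical.

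Ratios are those of group means, called past 1.5-fold where the higher mean was at least 10. With limma 3.58.1 (R 4.3.3), log2(value + 1) of recovered libraries was fitted for genes with a mean of at least 10, by a moderated test with trend and Benjamini-Hochberg adjustment. A fold on this scale understates the change of low genes. The scripts were tested on simulated data. The design foresaw no test, and the recovery, limma and leaving out libraries were added after the data were seen. The 10 genes got no test.

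The members and lists were chosen with earlier results of these data known. Named besides the members were, per direction, the 5 genes with the largest smaller log2 ratio among those past 1.5-fold in opposite directions, and per list up to 4 genes with the largest ratio; further names, marked in the text, were picked once the values were known, and some genes are not reported here. Alternatives were a 2-fold limit, a mean of at least 100 or none, a pseudocount of 1, re-centring on the median gene, and leaving out each library.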

Additional observations from a re-analysis of the deposited data

How the results depend on the processing

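No direction of the 10 genes was reversed under any alternative run. The number past the limit with Nrf1 went from 10 to 4 with a mean of at least 100, and with Nrf2 from 10 to 6 with a 2-fold limit. Leaving out each library in turn gave 9 to 10 genes past 1.5-fold with Nrf1, 10 with Nrf2 and 10 between the factors. *Ndrg1* was lost with Nrf1 without the middle LacZ or the middle Nrf1 library, at -0.53 and -0.55, and *Irf4* ranged from -1.50 to -0.87. The counts of all genes in opposite directions depended on the limits. For genes higher with Nrf1 and lower with Nrf2 there were 4, and 2 with a 2-fold limit, 71 without a limit on the mean, 1 with a mean of at least 100 and 2 with a pseudocount of 1. In the reverse directions there were 63, and 19, 295 and 15 under the first 3 of these. Re-centring moved the median gene by at most 0.05 and changed no call of the 10 genes. No paired analysis was possible because the recovered libraries carry no replicate number. Depth limits *Prdm1*, *Irf4* and *Sp5* most, with 4 to 13 reads per library in their lowest groups.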
